A study of Mus musculus with 6 samples.

Results

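Collagens are trimeric proteins of the extracellular matrix, and their genes form a family that is grouped by the structure each protein builds. The rows of the deposited gene table whose name has the form Col, a number, a and a number were taken, 45 of 21936 listed genes. Of these, 44 encode collagen chains and 1, Col4a3bp, encodes a ceramide transfer protein named for an antigen of collagen IV, so it is given apart. The table comes from PAM212, a line labelled as mouse keratinocytes and kept in DMEM supplemented with fetal bovine serum. The polyadenylated RNA of 2 groups of 3 libraries was sequenced, 1 from PAM212 overexpressing mouse miR-28-3p after lentiviral infection and 1 from control PAM212 labelled as not treated. The controls are titled NC, but the labels name no vector for them. Whether they were infected is thus unknown, and infection itself and the microRNA cannot be told apart. The labels also leave unsaid whether libraries of 1 group came from different cultures, and p-values then measure only the spread between these libraries, which may be technical.

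Each collagen chain holds long stretches in which glycine recurs at regular steps, and 3 chains wind into a triple helix in the endoplasmic reticulum before they are exported. Epithelial cells rest on a basement membrane whose sheet is built from collagen IV, while collagen VII fibrils anchor it to the dermis and collagen XVII spans the hemidesmosome of the keratinocyte. Fibrillar collagens such as I and III are mainly made by fibroblasts, and collagen VI forms beaded filaments beside the basement membrane.

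The libraries held 14309898 to 16383374 counted reads, and depth overlapped between the groups. Averaged over counted reads, the deposited gene length was 5091 to 5119 bases in the controls and 6021 to 6050 bases with overexpression, so that reads came from longer genes in the second group. Of 10 epithelial and keratinocyte markers, Krt5 and Krt6a were at 0 in every library. Krt14, a basal keratin, stood at 30.5 CPM in control cells against 39.1 CPM with overexpression, Krt8 at 1239 and 1088 CPM, and Trp63, which marks basal cells, at 1.13 and 0.110 CPM. Krt15, another basal keratin, had 1005 counts in control cells against 0 with overexpression. Of the 8 tested, 3 were called higher (Krt14, Cdh1 and Dsp) and 5 lower (Krt8, Krt18, Epcam, Krt15 and Trp63). Over all tested genes 42.1% were called higher and 43.9% lower. Krt15 and Trp63 passed the filter on low counts, given below, through the controls alone and so had to be lower. The summed level of the 10 was 4437 to 4460 CPM in the controls and 3242 to 3264 CPM with overexpression, with Krt18 at 1798 and 1070 CPM and Epcam at 832 and 315 CPM against Cdh1 at 382 and 532 CPM and Dsp at 145 and 212 CPM. The most abundant keratins among them were thus Krt8 and Krt18 of simple epithelia, while the keratinocyte markers Krt5 and Krt6a were absent and Krt15 and Trp63 low or absent with overexpression. The sample labels name keratinocytes, and the series' design line names melanocytes. CPM is a gene's share of the counted reads of its library, with library sizes scaled by TMM.

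The microRNA itself is shown because a collagen transcript could pair with its seed, bases 2 to 8, in capitals. The sequence is that of RefSeq for GRCm38.p6, at chr16:24827908-24827929 (plus strand).
mmu-miR-28a-3p: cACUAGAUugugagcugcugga
The letters that pair with this seed, ATCTAGT, were searched on the sense strand in the longest annotated 3' UTR of each gene. They occurred in 757 of 11647 tested genes with such a UTR (6.50%). Among the 44 collagen genes, all with a UTR of sufficient length, 0 held them. The UTRs searched were 185 to 3852 bases long in the 22 tested collagen genes, with a median of 1079 against 1187 bases in all tested genes. A missing match says only that these letters are not in this stretch.

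Detection came first. Of the 44 collagen genes, 36 had at least 1 count in some library and 8 had none (Col11a1, Col5a2, Col6a4, Col6a6, Col19a1, Col22a1, Col9a1 and Col26a1). A further 14 fell under the filter on low counts, with 1 to 49 reads summed over the 6 libraries and at most 15 in any library. The remaining 22 were tested. The filter asks for about 0.652 CPM in 3 libraries, and 7 of the 22 were under that level in every overexpression library and so passed through the controls alone, while 0 passed through overexpression alone. The 7 that passed through the controls alone were Col1a1, Col2a1, Col8a2, Col9a3, Col14a1, Col20a1 and Col23a1. Such a gene had to be lower with overexpression. The counts below, and the calls of these 7 genes, are thus no support for a shared direction.

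Of the 22 tested collagen genes, 5 were called higher and 16 lower with overexpression, and Col27a1 was not called (edgeR, adjusted p under 0.05). Over all 11809 tested genes, 42.1% were called higher and 43.9% lower, so that a call by itself is common in these data. Falls of at least 2-fold were called for 15 of the 22, against 21.0% of all tested genes, and a rise of that size for 1, against 14.8%. The 5 that rose were Col4a1, Col4a2, Col8a1, Col12a1 and Col17a1, and in each of them the lowest overexpression library exceeded the highest control library. In the 16 that fell the highest overexpression library stayed under the lowest control library. Of all 11809 tested genes, 4984 lay above in this way and 5170 below, so such separation is also common in these data. The median log2 fold change was -1.89 over the 22 and -0.03 over all tested genes. Among the 11 collagen genes with a mean of at least 10 CPM over the 6 libraries 4 were higher and 7 lower with a median of -1.12. Over the 9160 genes at that level 49.2% were higher and 39.7% lower, with a median of 0.10.

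**Figure D1:**
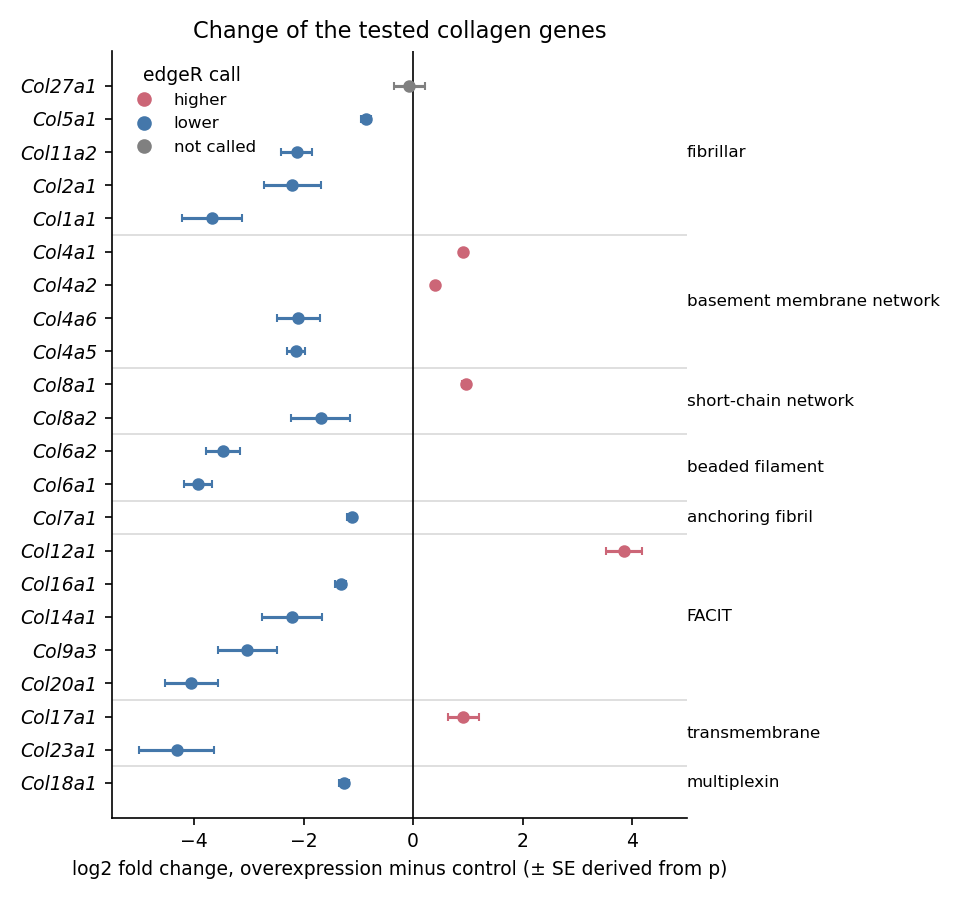
Log2 fold change of each tested collagen gene, overexpression minus control, with the SE derived from p as bars and classes separated by lines. Points right of 0 are the 5 genes called higher, Col12a1 farthest at 3.86. Points left are the 16 called lower, down to Col23a1 at -4.32, with Col27a1 near 0 at -0.07. Col23a1 passed the filter through the controls alone.

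The level of each gene per length, in the deposited FPKM (reads scaled to gene length and library total), gave this order in the controls. Col18a1 at 53.9 ± 0.646 FPKM (SD, n = 3), Col4a1 at 50.9 ± 0.354 and Col4a2 at 46.4 ± 0.895 led, and the libraries of these 3 genes did not overlap. Col7a1 followed at 33.2 ± 0.119 FPKM. Then came Col16a1 at 29.9 ± 0.289, Col8a1 at 29.9 ± 1.29 and Col6a1 at 28.4 ± 0.700 FPKM, where Col8a1 overlapped both of its neighbours. With overexpression the order became Col4a1 at 90.2 ± 0.549 FPKM, Col4a2 at 57.6 ± 1.89, Col8a1 at 54.5 ± 0.137, Col18a1 at 21.0 ± 0.421, Col7a1 at 14.3 ± 0.556 and Col16a1 at 11.2 ± 0.307 FPKM. Col6a1, seventh in the controls, was at 1.74 ± 0.151 FPKM. The deposited lengths exceed the annotated exon bases by unequal amounts, with 7833 against 5108 for Col8a1 and 6619 against 6450 for Col4a2. The order between genes therefore depends on the lengths used.

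**Figure D2:**
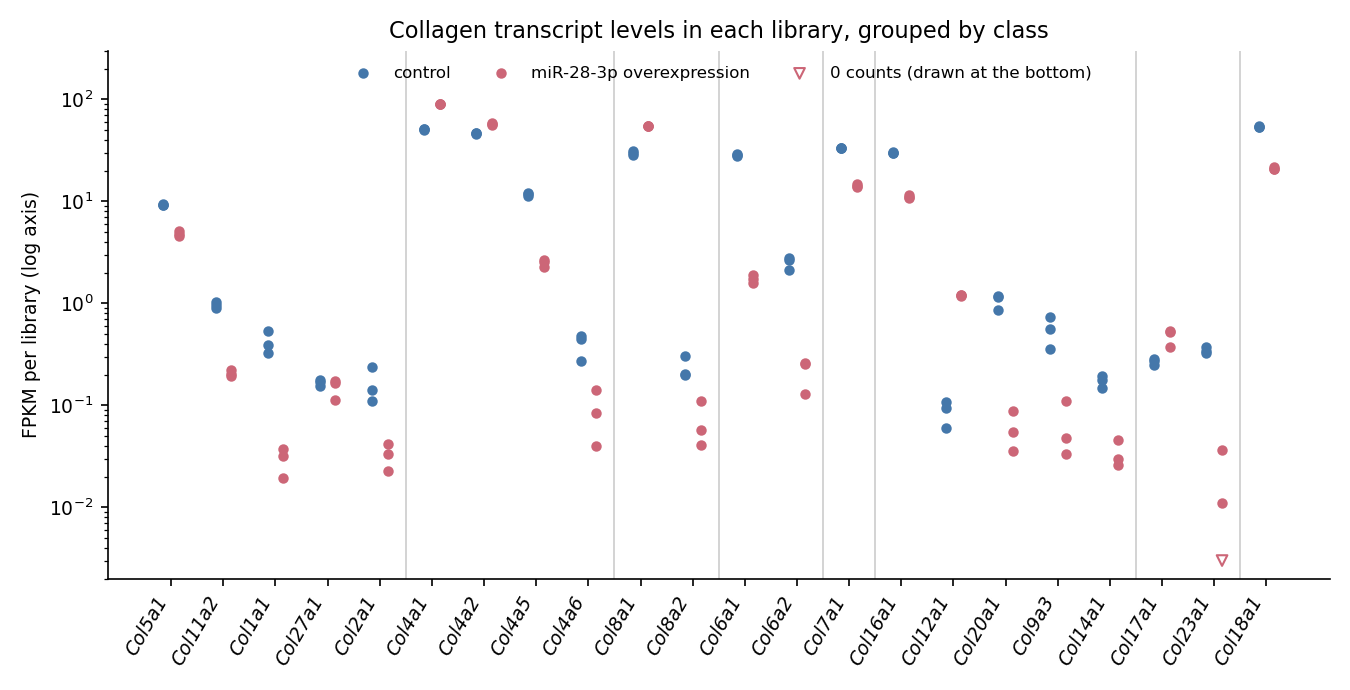
FPKM of the 22 tested collagen genes in each library on a log axis, grouped by class, with 1 point per library (blue control, red miR-28-3p overexpression). Control levels span from 53.9 FPKM for Col18a1 to 0.0872 FPKM for Col12a1, and Col6a1 drops from the level of Col8a1 to 1.74 FPKM.

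Basement membrane collagens went in opposite directions within the class. The genes Col4a1 and Col4a2 encode the chains of the collagen IV network found in nearly all basement membranes. Col4a1 (ENSMUSG00000031502, chromosome 8, 11198423 to 11312826, GRCm38) had 369, 366 and 370 CPM in control cells against 690, 695 and 701 CPM with overexpression. The groups were far apart, and it rose 1.89-fold, by 0.92 ± 0.066 on the log2 scale (with an SE taken from the p, edgeR adjusted p = 3e-42). Col4a2 (ENSMUSG00000031503, chromosome 8, 11312805 to 11449287) had 298, 292 and 303 CPM in control cells against 396, 380 and 406 CPM with overexpression. It rose 1.32-fold (log2 fold change 0.40 ± 0.042, edgeR adjusted p = 1.63e-21). This smaller rise depended on scale, at 0.17 with upper quartile scaling and 0.92 once a trend with gene length and GC content was removed, and it was not beyond 1.5-fold.

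The chains α5 and α6 of collagen IV, which share a trimer in the epidermal basement membrane, fell. Col4a5 (chromosome X, 141475385 to 141689234) had 78.6, 73.4 and 77.4 CPM in control cells against 17.7, 15.8 and 18.6 CPM with overexpression. Its fall was 4.39-fold (log2 fold change -2.14 ± 0.16, edgeR adjusted p = 1.84e-37). Col4a6 (chromosome X, 141165403 to 141474076) had 3.46, 2.11 and 3.68 CPM against 1.15, 0.330 and 0.695 CPM. It fell 4.29-fold, close to the size for Col4a5 (log2 fold change -2.10 ± 0.39, edgeR adjusted p = 1.11e-07). The pair Col4a3 and Col4a4, chains of the kidney network, stayed under the filter, with 5 and 25 counts in control cells against 2 and 15 with overexpression.

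The collagen IV genes lie in pairs that start head to head. By the deposited coordinates the starts of Col4a1 and Col4a2 are 21 bases apart, with an overlap of 22 bases, and those of Col4a6 and Col4a5 are 1309 bases apart. The first pair rose and the X-linked pair fell. The sequences before the starts of the X-linked pair, which fell, and before that of Col8a1, which rose as Col4a1 did, are shown as regulatory context. They are RefSeq promoter windows for GRCm38.p6, printed 5′ to 3′ on the strand of the gene and trimmed to the part upstream of every annotated exon. They span chrX:141475169-141475384 (plus) for Col4a5, chrX:141474077-141474326 (minus) for Col4a6 and chr16:57754738-57754987 (minus) for Col8a1. Capitals mark GC boxes.
Col4a5: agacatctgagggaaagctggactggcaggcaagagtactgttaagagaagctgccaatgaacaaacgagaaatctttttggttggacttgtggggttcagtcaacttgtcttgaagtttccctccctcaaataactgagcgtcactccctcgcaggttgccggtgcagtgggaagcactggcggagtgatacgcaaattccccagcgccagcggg
Col4a6: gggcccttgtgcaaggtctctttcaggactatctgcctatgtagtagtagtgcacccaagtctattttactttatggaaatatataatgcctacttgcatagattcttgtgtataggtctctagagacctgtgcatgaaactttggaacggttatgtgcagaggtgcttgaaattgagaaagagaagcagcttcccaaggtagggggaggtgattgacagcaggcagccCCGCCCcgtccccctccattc
Col8a1: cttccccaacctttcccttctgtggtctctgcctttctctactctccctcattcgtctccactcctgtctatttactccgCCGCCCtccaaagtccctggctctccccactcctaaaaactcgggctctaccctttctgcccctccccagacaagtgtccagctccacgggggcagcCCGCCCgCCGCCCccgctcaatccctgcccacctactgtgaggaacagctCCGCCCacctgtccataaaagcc
A GC box (GGGCGG on either strand) occurred in 35.7% of all 32851 windows, which reach from 250 bases before to 50 after a start. The whole windows held 4 for Col8a1, 3 for Col4a2 and 1 each for Col4a1, Col4a5 and Col4a6, so the motif stood in windows of genes that rose and of genes that fell. The AP-1 motif TGANTCA, found in 7.81% of windows, and the TATA box TATAAA, in 13.6%, were absent from all 5. The TEAD motif GGAATG, in 14.7%, occurred once, in the whole window of Col4a6 but not within the printed stretch. Matches are descriptions of letters and not of binding.

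The short-chain collagens form hexagonal networks. Col8a1 (ENSMUSG00000068196), a chain of collagen VIII, had 237, 218 and 226 CPM in control cells against 441, 440 and 442 CPM with overexpression. It rose 1.94-fold (log2 fold change 0.96 ± 0.071, edgeR adjusted p = 8e-40). Its partner gene Col8a2 had 14, 13 and 21 counts in control cells against 7, 4 and 3 with overexpression. Col8a2 fell (log2 fold change -1.69 ± 0.54, edgeR adjusted p = 0.00212), a call lost once the length and GC trend was removed (-1.05, edgeR adjusted p = 0.0569). Col10a1, the collagen of growth plate cartilage, had 3 counts in each group.

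The beaded filament class showed the deepest fall among the abundant members. Col6a1 (ENSMUSG00000001119, chromosome 10, 76708792 to 76726168) had 119, 118 and 124 CPM in control cells against 7.21, 7.79 and 8.59 CPM with overexpression. The levels were far apart, a 15.2-fold fall (log2 fold change -3.93 ± 0.26, edgeR adjusted p = 1.07e-50). Col6a2 (chromosome 10, 76595762 to 76623630) had 21.4, 22.4 and 17.3 CPM in control cells against 2.16, 1.12 and 2.21 CPM with overexpression. It fell 11.1-fold (log2 fold change -3.47 ± 0.31, edgeR adjusted p = 2.68e-28). The third chain of the classical collagen VI trimer, Col6a3, had 0 counts in control cells against 2 with overexpression. In the controls 3 counts over the group would equal 0.00553 FPKM for Col6a3, which limits it to a level far under the 28.4 FPKM of Col6a1. Chains that can take its place were as scarce, with 11 counts in all for Col6a5 and 0 for Col6a4 and Col6a6.

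Collagen VII and the tested multiplexin, collagen XVIII, fell. Col7a1 (ENSMUSG00000025650), the single chain of the anchoring fibril, had 330, 332 and 330 CPM in control cells against 158, 146 and 151 CPM with overexpression. It fell 2.18-fold (log2 fold change -1.12 ± 0.082, edgeR adjusted p = 3.14e-41). Col18a1 (ENSMUSG00000001435), a heparan sulfate proteoglycan of basement membranes whose end fragment is endostatin, had 370, 368 and 362 CPM against 150, 156 and 152 CPM. It fell 2.40-fold (log2 fold change -1.26 ± 0.088, edgeR adjusted p = 6.18e-45). The related Col15a1 had 10, 10 and 11 counts in control cells against 5, 8 and 5 with overexpression, under the filter.

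The FACIT collagens sit on the surface of fibrils, and here 1 rose and 4 fell, beside 42.1% and 43.9% of all tested genes. Of those that fell, Col20a1, Col9a3 and Col14a1 passed the filter through the controls alone and had to be lower. Col12a1 (ENSMUSG00000032332), found on fibrils of dense connective tissue, had 0.879, 1.58 and 1.40 CPM in control cells against 19.0, 18.5 and 18.9 CPM with overexpression. This 14.6-fold rise was the largest of any tested collagen (log2 fold change 3.86 ± 0.33, edgeR adjusted p = 5.01e-30), yet its level of 1.19 FPKM stayed far under that of Col4a1. Col16a1 (ENSMUSG00000040690), a FACIT member made by keratinocytes as well as fibroblasts, had 194, 195 and 198 CPM against 76.1, 77.7 and 80.5 CPM. It fell 2.50-fold (log2 fold change -1.32 ± 0.099, edgeR adjusted p = 8.62e-40).

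The other FACIT genes were low. Col20a1 had 94, 87 and 67 counts in control cells against 4, 7 and 3 with overexpression, and fell 16.6-fold (edgeR adjusted p = 7.09e-17). Col9a3, a chain of the cartilage collagen IX, had 44, 20 and 33 counts against 6, 2 and 3, and fell 8.18-fold (edgeR adjusted p = 3.26e-08). Its exons share 7.68% of their bases with Tcfl5 on the opposite strand, and the sources used here give no strand setting for the counting, so its reads are uncertain. With the length and GC trend removed its log2 fold change was -2.32 in place of -3.03. Col14a1 had 16, 20 and 19 counts against 3, 5 and 3, and fell 4.67-fold (edgeR adjusted p = 8.35e-05). Of the other 2 chains of collagen IX, Col9a2 had 6 counts in control cells against 0 with overexpression, and Col9a1 had 0 throughout.

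Fibrillar collagens were scarce except for 1 gene. Col5a1 (ENSMUSG00000026837), a chain of the collagen V that starts fibrils, had 76.3, 77.2 and 77.5 CPM in control cells against 40.4, 45.1 and 42.1 CPM with overexpression. It fell 1.81-fold (log2 fold change -0.86 ± 0.087, edgeR adjusted p = 4.13e-22). Its usual partner gene Col5a2 had 0 counts in every library, which allows up to 0.0069 FPKM in the controls at 3 counts over the group, and Col5a3 had 5 counts in each group.

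Col11a2, of collagen XI, had 96, 104 and 102 counts in control cells against 20, 21 and 25 with overexpression. It fell 4.37-fold (edgeR adjusted p = 2.23e-13), a log2 fold change of -2.13 that was -1.53 with the trend removed. Col1a1, the main chain of collagen I, had 54, 38 and 33 counts against 3, 2 and 4, and fell 12.8-fold (edgeR adjusted p = 4.09e-11). Its partner Col1a2 had 0 counts in control cells against 3 with overexpression, and Col3a1 had 1 count in all. Col2a1, the cartilage collagen, had 34, 15 and 20 counts against 3, 6 and 5, and fell 4.62-fold (edgeR adjusted p = 2.69e-05). Col27a1 had 31, 34 and 34 counts against 32, 23 and 35, overlapped between the groups and was not called (log2 fold change -0.07 ± 0.28, edgeR adjusted p = 0.804). Col24a1, under the filter with 7, 4 and 11 counts against 0, 1 and 2, is given an adjusted p of 0.0272 in the authors' deposited table.

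Transmembrane collagens were low in both groups. Col17a1 (ENSMUSG00000025064), the hemidesmosome collagen also known as BP180, had 25, 22 and 26 counts in control cells against 45, 50 and 37 with overexpression. It rose 1.89-fold to 2.96 ± 0.541 CPM (SD, n = 3; edgeR adjusted p = 0.00165), a change not beyond 1.5-fold by the test against that minimum (adjusted p = 0.0712). Col23a1 had 29, 29 and 33 counts against 3, 1 and 0, and fell 20.0-fold (log2 fold change -4.32 ± 0.69, edgeR adjusted p = 6.32e-10). That value rests on 4 reads with overexpression, and became -5.59 without overexpression replicate 1 and -3.73 without replicate 3. Col13a1 and Col25a1 had 2 and 4 counts in all, and of the unclassed members Col28a1 had 7 counts in control cells against 0 with overexpression.

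The sum over the collagen genes changed less than its make-up. Summed collagen FPKM was 298 to 304 in the controls and 258 to 263 with overexpression, and the groups did not overlap. The deposited FPKM carries no TMM scaling. Summed CPM, which is TMM-scaled but not per length, was 2092 to 2127 against 1992 to 2031, so the size of the fall depends on scale. Basement membrane network genes held 36.1 to 36.6% of the summed FPKM in the controls and 57.3 to 58.1% with overexpression. The short-chain network genes held 9.71 to 10.4% and 20.7 to 21.1%. The beaded filament share was 10.1 to 10.3% in the controls and 0.720 to 0.820% with overexpression. The multiplexins held 17.6 to 18.2% against 7.96 to 8.37%, collagen VII 10.9 to 11.2% against 5.33 to 5.70%, and the FACIT genes 10.5 to 10.6% against 4.73 to 4.88%. Fibrillar genes held 3.66 to 3.72% against 1.92 to 2.13%. With overexpression the collagen IV and VIII classes together held most of the summed collagen level. The sizes of these shares also depend on the deposited lengths.

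**Figure D3:**
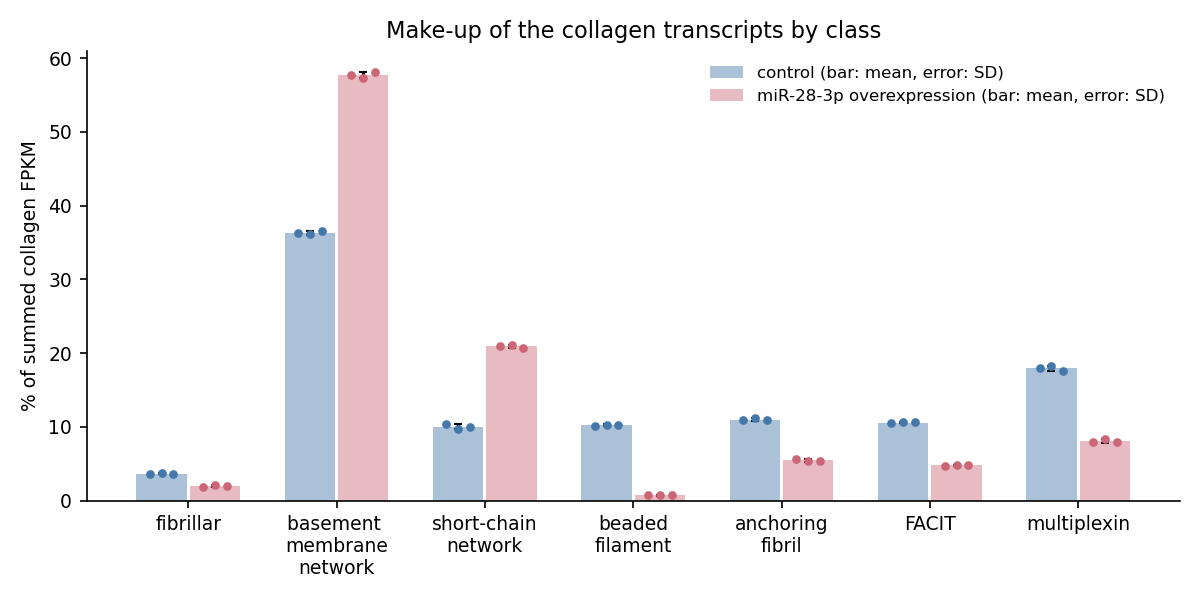
Share of the summed collagen FPKM held by each class, in percent, as the mean with SD (n = 3) and 1 point per library. The basement membrane bar goes from about 36.3% in control replicate 1 to 57.7% in overexpression replicate 1, and the beaded filament bar from 10.1% to 0.725%.

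Ratios between chains were taken per length in each library, for chains that can share a trimer and for Col4a5 against Col4a1, which belong to different trimers. Col4a2 over Col4a1 was 0.909, 0.900 and 0.925 in control cells against 0.648, 0.616 and 0.653 with overexpression. The groups did not overlap (exact permutation p = 0.1, two-sided, the smallest 3 against 3 can give, 0.2 adjusted over the 4 ratios computed). Col4a5 over Col4a1 went from 0.231 ± 0.00704 to 0.0278 ± 0.00221 (SD, n = 3, exact permutation p = 0.1, adjusted 0.2). Col6a2 over Col6a1 was 0.0891 ± 0.0139 and 0.123 ± 0.0424 with overlap (exact permutation p = 0.3, adjusted 0.4). Col4a6 over Col4a5 was 0.0338 ± 0.00841 and 0.0346 ± 0.0188, also with overlap (exact permutation p = 0.9, adjusted 0.9). The design cannot reach 0.05 for a single ratio.

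**Figure D4:**
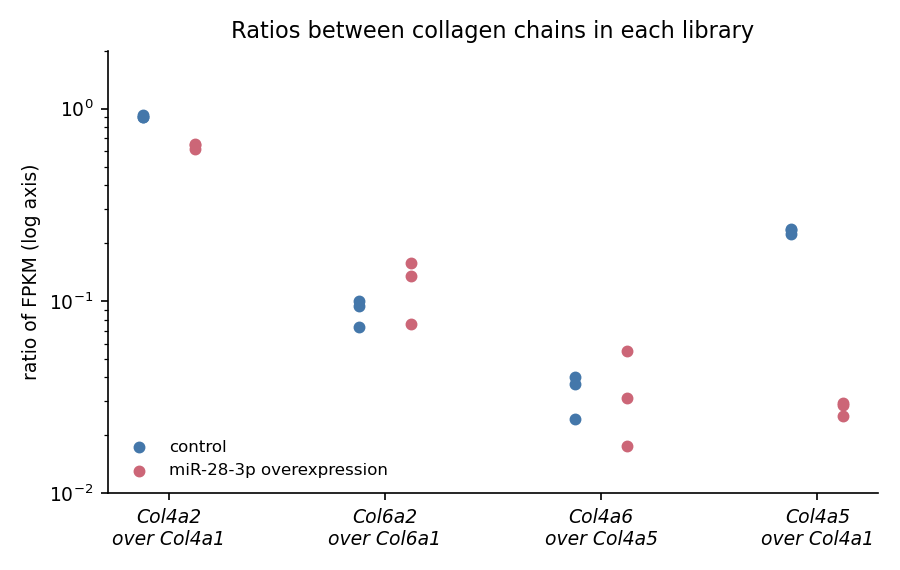
Ratio of FPKM between pairs of collagen chains on a log axis, 1 point per library. The points of Col4a2 over Col4a1 separate (0.900 to 0.925 against 0.616 to 0.653), as do those of Col4a5 over Col4a1, while those of Col6a2 over Col6a1 and Col4a6 over Col4a5 overlap.

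Of 16 tested genes that fold and modify collagen 11 fell and 4 rose, against 43.9% lower and 42.1% higher among all tested genes. The median log2 fold change was -0.36 against -0.03 over all. With the length and GC trend removed 6 fell and 9 rose. P4ha1, the catalytic subunit of prolyl 4-hydroxylase, fell 2.72-fold from 213 ± 3.02 to 78.3 ± 0.848 CPM (SD, n = 3, edgeR adjusted p = 1.47e-42). Its partner P4hb went from 843 ± 3.30 to 638 ± 6.69 CPM, and Serpinh1, the collagen chaperone HSP47, from 329 ± 8.14 to 288 ± 4.26 CPM. Both were called lower, and both turned to called higher when the trend was removed, with log2 fold changes of 0.19 and 0.61. Colgalt1, which adds galactose to hydroxylysine, rose 2.04-fold to 198 ± 1.62 CPM. P3h2, a prolyl 3-hydroxylase active on collagen IV and named after its values were seen, had 61 counts in control cells against 639 with overexpression, a 10.9-fold rise (edgeR adjusted p = 1.8e-25).

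Of 15 tested genes for export, processing and cross-linking, 9 rose and 4 fell (median log2 fold change 0.61), where 42.1% of all tested genes were higher and 43.9% lower (median -0.03). Bmp1, the protease that removes the C-terminal propeptide of procollagens, fell 1.88-fold from 750 ± 17.2 to 399 ± 7.91 CPM (SD, n = 3, edgeR adjusted p = 1.52e-41). Loxl4, an oxidase that cross-links collagen, rose 5.92-fold from 35.0 ± 0.644 to 208 ± 8.41 CPM (edgeR adjusted p = 3.88e-51). Pxdn, the peroxidase that forms sulfilimine bonds in collagen IV, rose 1.72-fold to 152 ± 2.32 CPM. Tfg, of the export sites, stood at 109 ± 2.82 and 115 ± 4.26 CPM and was not called. The enhancers of propeptide removal went apart, Pcolce from 79.8 ± 4.52 to 9.48 ± 1.42 CPM and Pcolce2 from 25.0 ± 1.25 to 119 ± 3.46 CPM, a pair named after their values were seen. Lox itself had 1 count in all.

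Among 7 tested collagen receptors 3 rose and 4 fell (median log2 fold change -1.07 against -0.03 over all), beside 42.1% and 43.9% of all tested genes. Mrc2, among those that fell, was under 0.652 CPM in every overexpression library (0.216, 0.066 and 0.0632 CPM). It passed the filter through the controls alone and had to be lower, so this count and median are no support for a shared direction. Itga2 and Itgb1 encode the chains of the α2β1 collagen receptor of keratinocytes. Itga2 rose 3.32-fold from 79.0 ± 0.871 to 262 ± 8.78 CPM (SD, n = 3, edgeR adjusted p = 2.29e-47) and Itgb1 1.72-fold to 1839 ± 7.91 CPM. The receptor kinases for collagen went apart, with Ddr1 down 2.57-fold to 58.1 ± 0.361 CPM (log2 fold change -1.36, and -0.72 with the trend removed) and Ddr2 up 1.55-fold to 159 ± 6.87 CPM. Ddr2 was not called beyond 1.5-fold (edgeR adjusted p = 0.0585).

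Of 5 tested proteases that cut collagen 4 fell and 1 rose (median log2 fold change -1.01 against -0.03 over all), beside 43.9% and 42.1% of all tested genes. Mmp9, a gelatinase that also acts on collagen IV, fell 2.01-fold to 121 ± 2.73 CPM (SD, n = 3), and Mmp14, a membrane collagenase, 1.53-fold to 182 ± 1.17 CPM. Mmp13, an interstitial collagenase, fell 5.77-fold from 19.5 ± 1.25 to 3.33 ± 1.20 CPM, and Mmp15 4.04-fold. The riser was Mmp1b, with 9 counts against 98. Mmp1b was under 0.652 CPM in every control library (0.0628, 0.132 and 0.381 CPM). It passed the filter through overexpression alone and had to be higher. Its close paralog Mmp1a was listed but had no row under that name in the gene table, and its reads may be shared with Mmp1b.

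Among 15 tested partners in the basement membrane and its anchors 8 rose and 5 fell (median log2 fold change 0.50 against -0.03 over all), beside 42.1% and 43.9% of all tested genes. Lama5 and Lamb1 encode laminin chains of basement membranes. Lama5 stood at 803 ± 14.2 CPM in control cells (SD, n = 3), and fell 1.37-fold to 584 ± 13.3 CPM. Lamb1 fell 1.08-fold to 906 ± 15.4 CPM. Agrn, a heparan sulfate proteoglycan, stood at 421 ± 5.60 and 414 ± 3.40 CPM and was not called.

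**Figure D5:**
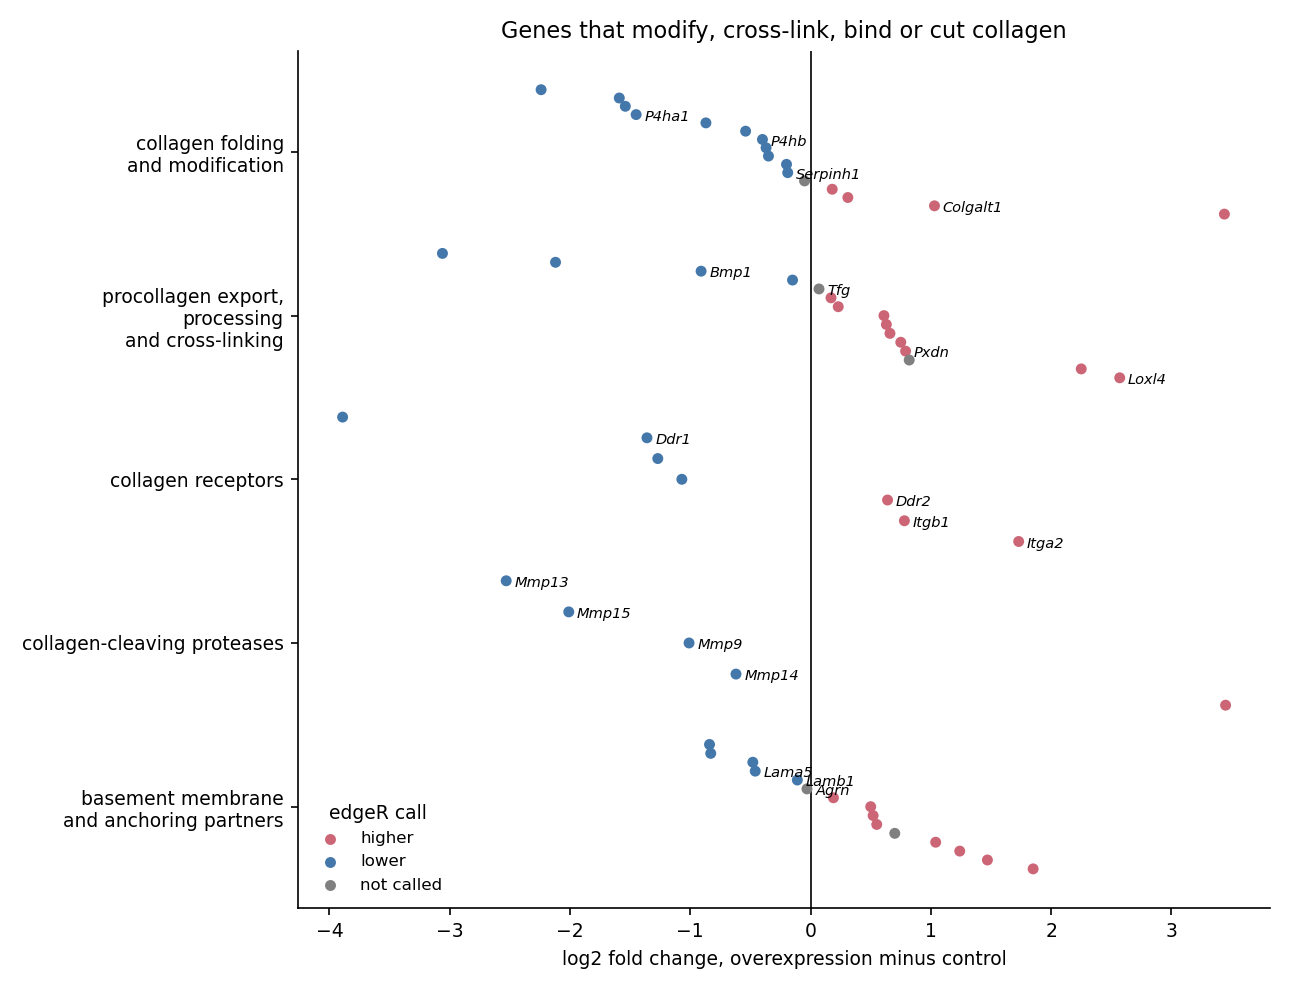
Log2 fold change, overexpression minus control, of the tested genes in 5 lists of collagen partners, 1 point per gene coloured by the edgeR call, with the most abundant genes of each list named. Every list holds genes on both sides of 0, from Mrc2 at -3.89 among the receptors to Mmp1b at 3.45 among the proteases. Mrc2 passed the filter through the controls alone and Mmp1b through overexpression alone, so the filter fixed the direction of both.

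Gene length and markers of other cells were read beside these results. Tested collagen genes are long, with a median deposited length of 6943 bases against 4526 bases for all tested genes. Over the 3871 genes longer than 6000 bases the median log2 fold change was 0.37, and over the 17 tested collagen genes of that length it was -1.26. With the length and GC trend removed, 5 collagen genes were called higher and 15 lower. Markers of other cell types that make collagen were also read. Of 10 fibroblast markers Lum, Thy1 and Dpt were at 0 and Dcn had 4 counts in all, while the summed level, 560 to 580 CPM in the controls and 881 to 895 CPM with overexpression, was mostly Fbln2 (521 and 869 CPM). Of the 3 tested, Fbln2 was called higher and Pdgfra (44.9 to 16.4 CPM) and Pi16 (170 counts to 1) lower, beside 42.1% and 43.9% of all tested genes. Pi16 passed the filter through the controls alone and had to be lower. The part of these markers in the collagen changes was not tested. The 5 endothelial markers summed to at most 0.758 CPM in any library and the 6 melanocyte markers to at most 3.10 CPM. Within the melanocyte list Tyr was at 0, Dct had 0 counts in control cells against 31 with overexpression, Tyrp1 0 against 40 and Pmel 87 against 38. The 6 leukocyte markers summed to 38.4 to 39.4 CPM in the controls and 15.9 to 19.8 CPM with overexpression, nearly all Cd68 and Cd14, with Cd3e at 0. In bulk RNA fewer cells of a type and less RNA per cell cannot be told apart.

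Col4a3bp, the row matched by name that is no collagen, had 55.2, 56.9 and 55.6 CPM in control cells against 115, 117 and 117 CPM with overexpression. It rose 2.08-fold (log2 fold change 1.06 ± 0.091, edgeR adjusted p = 2.21e-30), and 4.95% of its exon bases overlap a gene on the opposite strand. The authors' deposited table lists 36 collagen genes, 5 with an adjusted p under 0.05 and higher and 17 lower, and the 21 called by edgeR are among them in the same direction.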

How the data were processed

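Per the file headers the authors deposited read counts and FPKM per gene, and a table of their own comparison with a fold ratio, its log2 value, p-values and group means. That table's group A was read as the control, since its means correlated with the control counts at 1.0 and those of B at 0.95. The authors' deposited read tables show that 91.54 to 93.49 percent of raw reads were kept after trimming. The submitters' processing notes name HISAT2, HTSeq, DESeq and mm9, without parameters. Of 21936 listed genes 21604 have GENCODE release 21 coordinates for GRCm38, which is therefore used. Deposited FPKM equalled counts over length and library total.

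Counts were tested with edgeR 4.0.16 in R 4.3.3 on 11809 genes kept by filterByExpr (minimum count 10), with TMM scaling, the robust quasi-likelihood F test and Benjamini-Hochberg adjustment over all tested genes at 0.05. Standard errors were taken as effect size over the normal deviate of p. The code was tested on simulated data. The SE and SD values include the spread between these libraries, while floors of 3 counts cover counting error only. In a library of these depths 3 counts equal 0.183 to 0.21 CPM.

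Tested collagen genes are all described. From each partner list the 4 most abundant genes are named, except 1 that is not reported here, and others are marked where chosen after their values were seen. The members and lists were chosen with earlier results of these data known. Promoters and the microRNA were matched by symbol to RefSeq tables. Alternatives used DESeq2 1.42.0, limma 3.58.1 on log2(FPKM + pseudocount) and mgcv 1.9.3 for the length and GC trend.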

Additional observations from a re-analysis of the deposited data

How the results depend on the processing

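The counts of 5 higher and 16 lower collagen genes were the same with DESeq2 size factors, upper quartile scaling, DESeq2, FPKM in limma with a pseudocount of 1 or 0.1, and without each library in turn (5 and 16 each time). Without the filter they were 5 and 18, with the trend removed 5 and 15, beyond 1.5-fold 3 and 16. With a mean FPKM of at least 1 they were 3 and 7, since 10 collagen genes were then tested. Of 340 values of single collagen genes under 16 alternatives 335 kept direction and call, 3 lost the call and 2 turned, both for Col27a1 (0.11 with the trend removed and 0.10 without overexpression replicate 2, in a range of -0.17 to 0.10 over the libraries left out). The median of the tested collagen genes, -1.89, was -2.12 with upper quartile scaling, which moved the median of all genes from -0.03 to -0.26. It was -1.27 without the filter, -0.44 and -1.28 in FPKM with a pseudocount of 1 and 0.1, -1.24 with a mean FPKM of at least 1, -1.29 with the trend removed, and -2.02 to -1.41 without each library in turn, where 23 genes were tested. A pseudocount understates the change of low genes.

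Folding genes called higher were 2 with upper quartile scaling, 2 beyond 1.5-fold and 9 with the trend removed, and those lower 5 beyond 1.5-fold and 6 with the trend removed. Beyond 1.5-fold, 5 export genes rose, and 4 basement membrane partners rose and 1 fell. With a mean FPKM of at least 1, 1 receptor fell and 0 proteases rose, where the 4 proteases tested were all called lower. P4hb turned to 0.19, Serpinh1 to 0.61 and Agrn to 0.18 with the trend removed. Tfg turned to -0.16 with upper quartile scaling and -0.02 in FPKM with either pseudocount or the FPKM minimum. Beside fewer genes tested, the cause was not tested. With the replicate block the counts were 5 and 16 and the median -1.89. Same-numbered libraries did not deviate together over all tested genes (correlations -0.0309 to -0.0031). No pairing by number was seen, though one that touches few genes would not show in these correlations. Depth limits the 14 collagen genes under the filter. Tested without it, Col24a1 and Col28a1 were called lower, and for the others a difference was not detectable at this depth.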

Other observations

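Some further collagen partners were chosen after their values were seen. Plec, the plakin that ties hemidesmosomes to keratin filaments, rose 3.61-fold from 181 ± 5.62 to 653 ± 2.46 CPM (SD, n = 3, edgeR adjusted p = 9.5e-56). Lama3, a laminin chain of the epidermal basement membrane, rose 2.05-fold from 98.3 ± 5.68 to 202 ± 1.20 CPM (edgeR adjusted p = 1.21e-34). Mrc2, an endocytic receptor that takes up collagen fragments, had 83 counts in control cells against 5 with overexpression (edgeR adjusted p = 6.86e-09). It passed the filter through the controls alone and had to be lower. Loxl3, an oxidase of the same family as Loxl4, fell 4.36-fold to 6.22 ± 0.981 CPM while Loxl4 rose.

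Among all 21936 listed genes ranked by mean FPKM, Col4a1 stood at place 942 in the controls and 426 with overexpression. Col8a1 stood at 1716 and 817. Col18a1 stood at 877 and 2562, Col4a5 at 4339 and 8489, and Col6a1 at 1842 and 9133.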
